A study of Mus musculus with 13 samples.

Results

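The regions described here had peaks of H3K27 acetylation (H3K27ac) called 1 h after activin A and none called with vehicle. They were chosen by the presence of peaks alone: peaks of the 4 H3K27ac libraries that overlapped by 1 bp or more were merged, and those regions were kept that contained a peak of each activin library but none of vehicle. The peak calls, and with them the ranks, folds and widths of H3K27ac, are therefore what selected the members. This left 3094 of 53008 regions, or 5.84%, called gained below. Set beside them are the 3599 regions of the opposite pattern (6.79%, called lost: both vehicle and no activin library) and the 24356 with a peak in all 4 libraries (45.9%, called constant). For every antibody, gained, lost, new and absent refer to peak calls, and a missing call does not show that signal was missing.

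The cells were LβT2, a mouse gonadotrope line, transduced with lentivirus to carry doxycycline-inducible FLAG-tagged mouse FOXL2 and constitutive GFP; 1 line was used. All groups, vehicle included, were given doxycycline for 48 h, so every FOXL2 value below is of the induced, tagged protein. After 2 h of equilibration in low serum (2%), they received activin A at 1 nM, or vehicle, and were fixed 1 h later. Coordinates are those of the deposited lists, in mouse build GRCm38 (mm10). Chromatin was immunoprecipitated for H3K27ac, for SMAD2/3 and for FLAG (FOXL2), with 2 samples per treatment and antibody, each pooled from 3 plates. Library names share letters across the antibodies, so the SMAD2/3, FOXL2 and H3K27ac libraries of a letter may come from the same chromatin; they are other immunoprecipitations, not necessarily other cultures.

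Activin binds type II and type I serine/threonine kinase receptors, which phosphorylate SMAD2 and SMAD3; these join SMAD4, enter the nucleus and bind short DNA motifs together with partner factors. In gonadotropes FOXL2, a forkhead factor, is such a partner, and the pathway is known for raising transcription of Fshb, the β subunit of follicle-stimulating hormone. Acetylation of lysine 27 of histone H3 marks active enhancers and promoters and is placed by coactivators that SMADs can recruit.

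Sequences were at hand for promoters, so the 3 gained regions of highest rank that hold a whole promoter window are shown, with Egr2, the only gene of the pathway, target and lineage lists below with a promoter window at a gained region. Each line is the 250 bases upstream of a transcription start, 5′ to 3′ on the gene's strand, from RefSeq (GRCm38.p6). Capitals mark the SMAD core motif CAGAC on either strand.
Zbed5, chr5:129895473-129895722, plus strand: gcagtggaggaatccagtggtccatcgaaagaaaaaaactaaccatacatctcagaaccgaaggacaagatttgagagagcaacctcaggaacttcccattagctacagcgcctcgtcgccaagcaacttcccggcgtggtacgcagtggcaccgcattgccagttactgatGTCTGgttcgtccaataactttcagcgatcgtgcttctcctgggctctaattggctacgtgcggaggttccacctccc
Gm35155, chr12:12827800-12828049, plus strand: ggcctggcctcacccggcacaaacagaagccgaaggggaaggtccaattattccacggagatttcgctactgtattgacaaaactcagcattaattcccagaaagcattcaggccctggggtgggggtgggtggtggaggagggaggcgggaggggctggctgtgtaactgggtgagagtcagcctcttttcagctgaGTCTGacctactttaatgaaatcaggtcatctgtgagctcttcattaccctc
Aqp7, chr4:41048137-41048386, minus strand: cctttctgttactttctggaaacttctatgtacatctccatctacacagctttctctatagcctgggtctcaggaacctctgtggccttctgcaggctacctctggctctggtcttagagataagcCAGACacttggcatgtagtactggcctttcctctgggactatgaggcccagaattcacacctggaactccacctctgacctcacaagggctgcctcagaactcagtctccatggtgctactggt
Egr2, chr10:67537316-67537565, plus strand: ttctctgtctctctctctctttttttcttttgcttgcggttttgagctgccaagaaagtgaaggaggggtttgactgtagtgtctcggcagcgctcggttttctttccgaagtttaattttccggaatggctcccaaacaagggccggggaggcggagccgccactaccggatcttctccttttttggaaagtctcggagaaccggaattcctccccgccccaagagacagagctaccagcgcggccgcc
The motif of Zbed5 (129895645 to 129895649) lies inside a SMAD2/3 region (129895632 to 129895926) that both activin libraries and no vehicle library contained. Another Aqp7 window inside the same gained region (41047963 to 41048212) had no SMAD core. The SMAD2/3 region of the Aqp7 promoter (41049047 to 41049306) lies farther upstream than the window shown. Further Egr2 windows that overlapped the gained region only in part (such as 67537619 to 67537868) had 1 SMAD core each. The Gm35155 and Egr2 regions held no SMAD2/3 region of both activin libraries.

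Across all gained regions, 60 promoter windows of 53 genes overlapped one. Of these windows 27 lay whole inside a gained region, so a motif can lie outside it. Windows of the same gene can overlap each other, while the intervals treat windows as independent. The SMAD core CAGAC stood in 31 of these 60 windows (51.7%, Wilson 95% interval 39.3 to 63.8), against 42.2% of all 32851 windows and 38.9% of the 95 at lost regions. The forkhead motif TGTTTAC stood in 3.33% (3.17% of all windows), AP-1 TGANTCA in 1.67% (6.75%), SF1 AAGGTCA in 1.67% (4.08%), PITX TAATCC in 8.33% (6.25%) and the LIM homeodomain motif TAATTA in 3.33% (4.84%). Both strands were searched, and none of the 6 motifs contains another. The share of all windows lay inside the interval of the gained windows for each of the 6.

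The deposited peak lists held 38995 to 41763 H3K27ac, 83834 to 97701 FOXL2 and 5970 to 7784 activin SMAD2/3 peaks per library; the vehicle SMAD2/3 lists held 605 and 144. Peak lists carry no read counts, so sequencing depth is unknown here, and intervals below cover counting error over regions only. Regions are not replicates of a treatment. Treatments were compared over the libraries with an exact permutation test, which with 2 against 2 cannot give a two-sided p below 0.33; nothing in the labels says that the samples came from separate experiments, so p-values measure only the spread between these samples. Of 10 gonadotrope marker genes, 8 had H3K27ac within 1 kb of a start in all 4 libraries (none at Fshb or Pitx1), and of 8 markers of other pituitary lineages 1 did (Crhr1).

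Gained regions were mostly weak members of their lists, which describes the values that chose them and is not tested. Their median percentile rank by −log10 q was 33.3 in activin library 1 and 27 in library 2, where 100 is the strongest peak of a list. The median width was 615 bp (192 to 4587), against 561 bp for lost and 1657 bp for constant regions. The weaker of both activin peaks had a −log10 q of 1.02 to 16.2 with a median of 2.15. It was below 2 in 1330 regions (43.0%) and below 1.5 in 484 (15.6%), and both peaks reached 5 in 153 (4.95%). Just outside the rule, 1826 regions had a peak in both activin libraries and in 1 vehicle library. That vehicle peak had a median −log10 q of 2.12, and it was below 1.5 in 324 of them (17.7%). Another 7694 regions had a peak in 1 activin library and no vehicle library; 1.4% of these held SMAD2/3 and 24.8% FOXL2, by the definition used below.

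Gained regions lay away from gene starts. By the deposited annotation 1769 gained regions (57.2%) were intronic, 937 (30.3%) intergenic, 139 (4.49%) at transcript ends, 138 (4.46%, interval 3.79 to 5.25) at promoters and 111 (3.59%) in exons. The promoter share was 6.78% among lost and 27.4% among constant regions. The median distance to the nearest annotated start was 17135 bp, against 21053 bp for lost and 6978 bp for constant regions. By chromosome, gained regions made up 4.38% (chromosome 3) to 6.99% (chromosome 12) of the regions, leaving out Y with 0 of 4.

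SMAD2/3 was found at gained regions almost only with activin. A SMAD2/3 region shared by both activin libraries overlapped 470 gained regions (15.2%, interval 14.0 to 16.5), against 12 lost (0.33%), 2913 constant (12%) and 7.07% of all H3K27ac regions. Seen from the other side, 461 of 5162 such SMAD2/3 regions (8.93%) lay on a gained region, 64.6% on a constant one and 0.213% on a lost one. In vehicle cells 5 gained regions (0.162%) held a SMAD2/3 region of both vehicle libraries. Library by library, a SMAD2/3 peak stood in 0.226% and 0.097% of gained regions for the vehicle libraries, against 18.5% and 14.1% for the activin ones. The libraries of the treatments did not overlap. The mean share was 0.162% ± 0.0914 with vehicle and 16.3% ± 3.09 with activin (SD, n = 2 each), 16.1 percentage points apart by the exact two-sided permutation test (p = 0.33, the smallest possible). The same values were 0.0834% and 0% against 0.556% and 0.361% for lost regions, and 1.97% and 0.456% against 15.9% and 12.8% for constant ones.

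The treatment difference at gained regions exceeded that at constant regions by 2.98 points and that at lost regions by 15.7 points (exact permutation p = 0.33 for each). SMAD2/3 regions of both activin and no vehicle library, called new below, made up 54.0% of all 8602 SMAD2/3 regions, and the vehicle lists were short.

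The lead of gained over constant regions depended on both activin H3K27ac libraries. With activin library 1 left out 6.05% of 6484 gained regions held SMAD2/3, below the 11.3% of constant ones. Without activin library 2 it was 6.0% of 8512 against 10.8%. Without either vehicle library the shares stayed higher in gained regions (13.6% against 11.7%, and 14.2% against 11.7%). The gap to lost regions was kept in all 4 cases, in which lost regions held 0.186% to 0.548%.

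**Figure D1:**
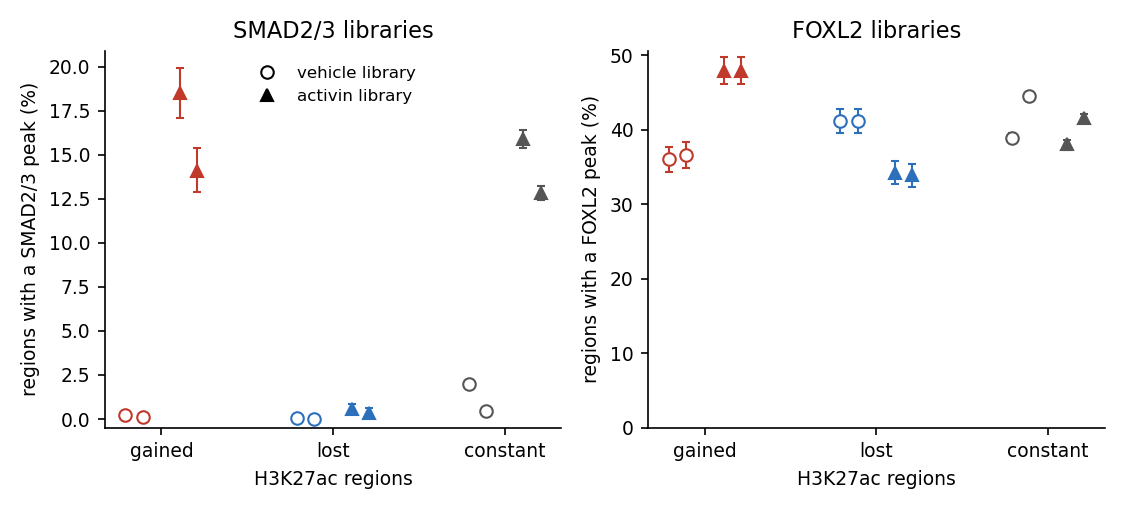
Share of H3K27ac regions (%) with a SMAD2/3 peak (left) or a FOXL2 peak (right) in each library, for gained, lost and constant regions. Open circles are vehicle and filled triangles activin libraries, and bars are 95% Wilson intervals. At gained regions the activin FOXL2 libraries both stand at 47.9%, above 36.0% and 36.6% with vehicle, while at lost regions they stand lower than with vehicle.

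FOXL2 was already present at many gained regions with vehicle, and more of them held it with activin. A FOXL2 region of both activin libraries overlapped 1499 gained regions (48.4%, interval 46.7 to 50.2), against 36.8% of lost, 36.0% of constant and 32.6% of all regions. As a share of the FOXL2 lists this is small: 1570 of 80073 activin FOXL2 regions (1.96%) lay on a gained region. In vehicle cells 1241 gained regions (40.1%) already held FOXL2, against 41.2% of lost and 37.0% of constant ones. Per library the FOXL2 share at gained regions was 36.0% and 36.6% in vehicle and 47.9% in each of the activin libraries, 11.6 points higher (exact permutation p = 0.33). At lost regions it was 41.2% and 41.2% against 34.2% and 33.9%, lower by the signed difference of -7.15 points (exact permutation p = 0.33). At constant regions the treatments overlapped, with 38.9% and 44.5% against 38.0% and 41.5% (exact permutation p = 0.667). The treatment difference at gained regions exceeded that at constant regions by 13.6 points and that at lost regions by 18.8 points (exact permutation p = 0.33 for each).

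The share above depended on both activin H3K27ac libraries: without library 1, 31.7% of gained regions held FOXL2, below the 35.1% of constant ones, and without library 2 it was 34.1% against 35.4%.

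FOXL2 regions that appeared with activin were uncommon among them. FOXL2 regions with a peak in both activin and no vehicle FOXL2 library (8.95% of all FOXL2 regions) were found at 230 gained regions (7.43%), against 0.5% of lost and 3.67% of constant ones. They were 234 FOXL2 regions, or 2.09% of the 11173 of that kind. FOXL2 regions of the opposite pattern (3.22% of all) were found at 8 gained regions (0.259%).

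Where FOXL2 was bound in all 4 FOXL2 libraries, its peak had a higher percentile rank in the activin lists at most gained regions. Of 1203 such FOXL2 regions on gained acetylation, 879 (73.1%, interval 70.5 to 75.5) ranked higher in both activin libraries than in either vehicle library, and 5.57% ranked lower in both. Over all 58444 FOXL2 regions found in all 4 libraries these shares were 29.9% and 28.1%. At lost regions the direction was the opposite, with 9.64% higher and 60.8% lower of 1297. At constant regions 22.9% were higher and 37.1% lower of 10545. The activin FOXL2 lists (97701 and 94006 peaks) were longer than the vehicle lists (86401 and 83834). With every list limited to its 83834 strongest peaks, 66.4% of 1180 ranked higher and 7.88% lower at gained regions, 7.69% and 68.4% at lost, 19.0% and 44.9% at constant, and 24.7% and 36.1% over all. The median FOXL2 rank at gained regions was 76.0 and 76.6 in the vehicle libraries, against 89.8 and 90 in the activin ones, a difference of 13.6 (exact permutation p = 0.33). At lost regions the vehicle libraries stood at 83.2 and 83.4, the activin ones at 76.2 and 75.8. At gained regions with SMAD2/3 79.3% of 348 FOXL2 regions ranked higher, and at those without it 71.6% of 899. At constant regions with and without SMAD2/3 these shares were 35.2% of 3724 and 16.3% of 6864. Without activin H3K27ac library 1 or 2 the share ranked higher over all gained regions was 68.6% or 65.2%, against 22.3% at constant ones in both cases.

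**Figure D2:**
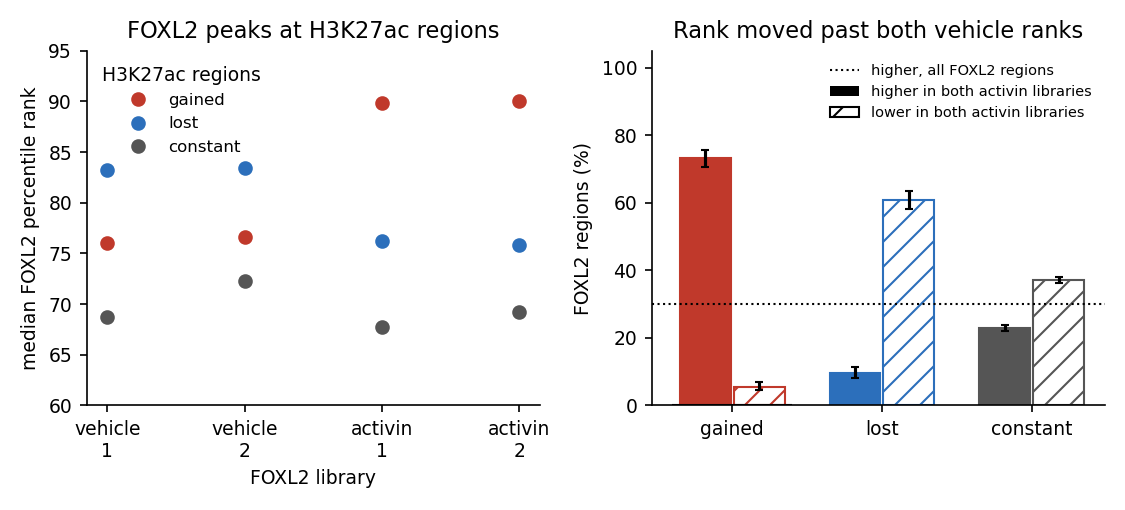
Left, median percentile rank of the FOXL2 peak in each FOXL2 library, at FOXL2 regions found in all 4 libraries, by the kind of H3K27ac region they lie on (the axis starts at 60). Right, share of those FOXL2 regions (%) whose rank was higher (filled) or lower (hatched) in both activin libraries than in either vehicle library, with 95% Wilson intervals; the dotted line is the 29.9% that ranked higher over all FOXL2 regions. Gained regions show 73.1% higher, lost regions 60.8% lower.

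Both factors together marked 407 gained regions (13.2%), SMAD2/3 alone 63 (2.04%), FOXL2 alone 1092 (35.3%), and 1532 (49.5%) had neither. At constant regions these shares were 10.2%, 1.73%, 25.8% and 62.3%. Among the 470 gained regions with SMAD2/3, 86.6% held FOXL2 with activin and 70.4% already with vehicle. Among the 2624 without SMAD2/3 these shares were 41.6% and 34.7%. At the 2913 constant regions with SMAD2/3 the FOXL2 share was alike with activin (85.5%) and higher with vehicle (80.8%). Among the 21443 constant regions without SMAD2/3 it was 29.3% and 31.0%. Gained regions with SMAD2/3 were wider, at a median of 1041 bp with both factors and 1108 bp with SMAD2/3 alone, against 620 bp with FOXL2 alone and 545 bp with neither. Their mean H3K27ac rank was also higher, at medians of 47.1 and 47.0 against 30.3 and 24.8. By class, SMAD2/3 stood in 16.3% of gained introns, 15.9% of intergenic, 10.9% of promoter, 7.91% of transcript-end and 6.31% of exon regions.

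Both factors were more frequent at stronger gained peaks. Over 4 groups of equal size, from the lowest to the highest mean H3K27ac rank, SMAD2/3 stood in 3.49%, 6.73%, 14.9% and 35.7% of gained regions and FOXL2 in 35.4%, 41.5%, 53.6% and 63.3%. FOXL2 of both vehicle libraries rose over the same groups, with 30.4%, 33.6%, 44.8% and 51.7%. The H3K27ac ranks come from the peaks that chose the members, so both the grouping and the matching by rank are a description with no test. Constant regions of the same rank held SMAD2/3 less often in each bin shown in the plot of shares by rank, and FOXL2 less often in each of those bins above 20. In the rank bin from 40 to 50, SMAD2/3 stood in 21.8% of 449 gained regions (interval 18.3 to 25.9) and 3.97% of 2492 constant ones (3.27 to 4.81). In the bin from 60 to 70 it stood in 54.8% of 126 against 8.94% of 3390, and FOXL2 in 72.2% against 30.5%. FOXL2 of both vehicle libraries already stood in 57.9% against 31.6% in that bin, and in 35.2% against 36.5% from 20 to 30. With activin, FOXL2 stood in 35.9% of gained and 34.1% of constant regions in the bin from 10 to 20, and from 0 to 10 in 30.7% and 34.6%. Constant regions of a bin were wider (a median of 1267 against 701 bp from 40 to 50). With the same window of 500 bp to each side of the strongest peak's centre for every region, SMAD2/3 stood at 25.6% of gained, 1.64% of lost and 9.25% of constant regions. This window was wider than the median gained region (615 bp) and narrower than the median constant one (1657 bp). It can take in SMAD2/3 beside gained regions and miss SMAD2/3 inside constant ones, so it does not remove the difference in width.

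**Figure D3:**
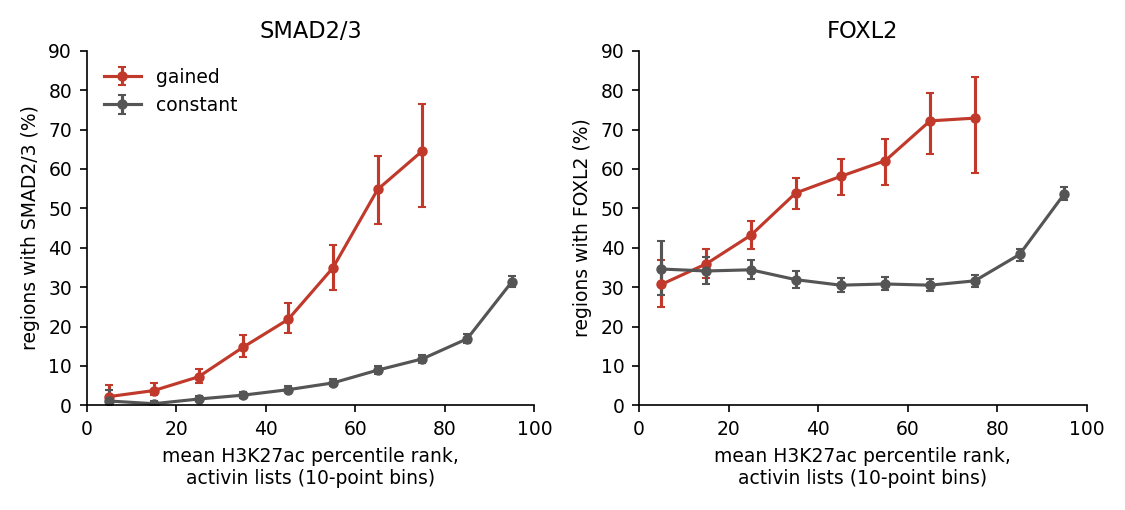
Share of regions (%) with a SMAD2/3 region (left) or FOXL2 region (right) of both activin libraries, against the mean H3K27ac percentile rank in both activin lists, in bins of 10 with at least 20 regions; bars are 95% Wilson intervals. Gained regions reach 64.6% with SMAD2/3 in the bin from 70 to 80, where constant regions stand at 11.8%.

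Of the 2624 gained regions that did not overlap SMAD2/3, 434 (16.5%, interval 15.2 to 18) lay within 1 kb of it, against 1.7% of such lost and 1.39% of such constant regions. Their median gap to the nearest activin SMAD2/3 region was 28378 bp, against 110558 bp and 96152 bp. Over all regions, overlapping ones included, within 1 kb lay 29.2% of gained, 2.08% of lost and 13.2% of constant regions, and within 100 kb 75.3%, 47.7% and 56.9%.

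**Figure D4:**
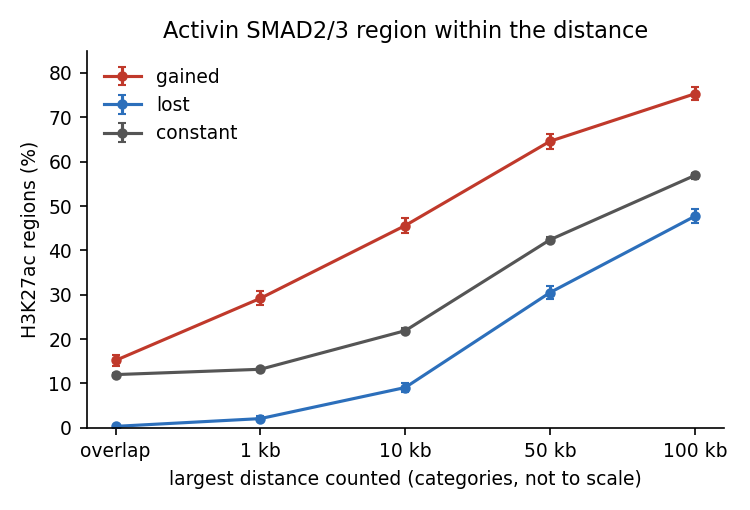
Share of H3K27ac regions (%) that overlap an activin SMAD2/3 region or lie within 1, 10, 50 or 100 kb of one, with 95% Wilson intervals. From overlap to 1 kb the gained share goes from 15.2% to 29.2% while the constant share goes from 12% to 13.2%.

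The factors often sat at the edge of gained regions or in the gap between them. The SMAD2/3 summit lay inside the acetylated region at 57.3% and 58.9% of gained regions with a peak (activin SMAD2/3 libraries 1 and 2), against 91.1% and 91.9% of constant ones. For FOXL2 this was 38.5% and 38.9% against 86.5% and 87.3%, and at lost regions 43.1% and 43.2%. Summits outside a gained region lay a median of 117 and 115 bp (SMAD2/3) or 153 and 152 bp (FOXL2) from its edge. Gained and lost regions were both narrower than constant ones, and the part of width in this was not tested.

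Gaps of up to 1000 bp between neighbouring gained regions numbered 339, with a median length of 366 bp. An activin SMAD2/3 region overlapped 149 of them (44.0%, interval 38.8 to 49.3). It overlapped 13 of 342 gaps between lost regions (3.8%, median length 373 bp) and 180 of 3292 between constant ones (5.47%). FOXL2 of both activin libraries overlapped 62.2% of the gaps between gained regions, 45.9% between lost and 13.2% between constant ones. FOXL2 of both vehicle libraries already overlapped 49.0%, 52.0% and 13.5%. Without 1 activin H3K27ac library the SMAD2/3 share was 28.5% of 827 (library 1) or 27.3% of 1253 gaps (library 2).

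An intron of Sh3kbp1, which encodes an adaptor of receptor endocytosis, gave an example chosen after its values were seen. Gained regions at chrX:159643443-159643895 and chrX:159644201-159644798 flanked a SMAD2/3 region at chrX:159643904-159644220. That SMAD2/3 region was absent with vehicle, and its deposited fold enrichments after activin were 12.7 and 13.5. The gap was bridged by a FOXL2 region (159643803 to 159644485), enriched 14.5- and 9.03-fold in the vehicle libraries and 41.2- and 42.0-fold in the activin ones. The nearest annotated start there is Gm15186, the nearest start of 8 gained, no lost and 2 constant regions. Sh3kbp1 itself held 9 gained, no lost and 11 constant regions, and its 9 gained regions include those 8.

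Gained regions also bordered acetylation present in vehicle cells. A constant region lay within 2 kb of 695 gained regions (22.5%) and of 22.1% of lost ones. Those 695 held SMAD2/3 less often than the other 2399 (8.49%, interval 6.64 to 10.8, against 17.1%, 15.7 to 18.7). The neighbouring constant region itself held SMAD2/3 for 37.0% of them, against 9.31% for lost regions. In the H3K27ac lists 58.7% of the 726 constant neighbours of gained regions ranked higher in both activin libraries, against 8.18% beside lost regions and 26.4% of all constant regions. Those ranks come from the libraries that chose the members and are given as a description. Another gained region lay within 10 kb of 1008 gained regions (32.6%), with up to 5 in a chain; the same share was 31.5% for lost and 59.3% for constant regions.

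The gained region of highest rank lay in intergenic sequence at -13.9 kb from the start of Esr2, the gene of estrogen receptor β (negative distances are upstream), at chr12:76190456-76191822. It ranked 92.8 and 92.3 in the activin H3K27ac lists. A SMAD2/3 region at its left end (76190293 to 76190684) was absent with vehicle and had fold enrichments of 26.4 and 28.2 with activin. FOXL2 was also absent there with vehicle and enriched 17.5- and 20.2-fold with activin. A constant H3K27ac region lay 909 bp away.

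Of the 10 gained regions of highest rank, 7 held SMAD2/3 and 6 of these also FOXL2. In an intron of Tbc1d14, a regulator of autophagy, the region chr5:36538941-36540001 ranked 92.2 and 87.7, with SMAD2/3 at 9.54- and 8.71-fold and FOXL2 at 10.6- and 9.56-fold with activin and neither with vehicle. In an intron of Fam185a the region chr5:21436786-21437675 (ranks 85.3 and 78.1) had new SMAD2/3 of 12.9- and 12.5-fold. That SMAD2/3 region (21436328 to 21436788) only touched the left edge of the gained one and lay almost wholly outside it. FOXL2 there was present in vehicle cells at 13.1- and 13.9-fold and stood at 23.8- and 22.7-fold with activin. In Klhl12, an adaptor of the cullin-3 ubiquitin ligase, chr1:134477321-134478463 was the only one of the 7 with SMAD2/3 in both vehicle libraries, at 6.99- and 4.89-fold, and it reached 14.7- and 16.3-fold with activin. The region in Rabgef1, a regulator of endosome fusion (chr5:130195164-130197111), had SMAD2/3 at 5.79-fold in vehicle library 1 only and at 12.2- and 14.6-fold with activin. The regions in an intron of Raly and at the Zbed5 promoter had new, weaker SMAD2/3, at 3.99- and 3.55-fold and at 5.16- and 3.46-fold.

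The other 3 had neither factor in both activin libraries. In an intron of Atp2c2, a Golgi calcium and manganese pump, chr8:119737934-119738579 ranked 81.9 and 86.1 with the nearest SMAD2/3 region 15.3 kb away. In Cep164, a centriole protein, chr9:45812678-45813662 ranked 85 and 81.7 and lay 0.063 kb from SMAD2/3. In Polg2, the accessory subunit of the mitochondrial DNA polymerase, chr11:106776281-106776759 ranked 83.4 and 80.8 and lay 0.098 kb from SMAD2/3.

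Further down, among regions with both factors, 1 lay at -13.2 kb from the start of Gata4, a zinc finger factor (chr14:63283992-63284653, ranks 77.8 and 77.4), with both factors absent in vehicle cells. Another in Prune (chr3:95264456-95266657, ranks 71.7 and 84.2) had FOXL2 near the bottom of the vehicle lists, at 2.5- and 2.87-fold, and at 6.96- and 7.46-fold with activin. The region in Psmd1, a proteasome subunit gene (chr1:86078417-86079363, ranks 89.0 and 71.0), had both factors, absent in vehicle cells, at its right end. The SMAD2/3 region (86079362 to 86079628) only touched that end, and the FOXL2 region (86079337 to 86079630) lay mostly beyond it. The region in Zfp516 had both factors new as well. The 5 widest gained regions, in Kansl1, Helz, Rap1gap2, Msi2 and Dpp6, each held SMAD2/3 that was absent with vehicle, and those in Rap1gap2 and Dpp6 had no FOXL2 region of both activin libraries. The Helz region (chr11:107656322-107660698) had SMAD2/3 at 20.2- and 16.5-fold and FOXL2 at 16.3- and 22.0-fold in vehicle against 41.9- and 35.2-fold in activin libraries.

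At promoters the highest were Zbed5 (chr5:129895181-129896343, ranks 80.8 and 82.6), Aqp7, an aquaglyceroporin gene (chr4:41047585-41050689, 69.1 and 75), Unc13a, a synaptic vesicle priming factor (chr8:71642870-71643684, 64.7 and 74.0), Mrpl33 (chr5:31655278-31655889, 71.1 and 67.5) and Sox5 (chr6:144782336-144783147, 72.3 and 63.1). These names are the genes to which the deposited promoter label belongs. The nearest start listed for the last 4 is a small or noncoding RNA gene, at -1.89, -12.2, 11.8 and 21.0 kb. The promoter label and the listed distance thus differ for some regions. Over the 138 gained promoter regions the listed distance had a median of 808 bp and an upper quartile of 8308 bp. Zbed5, Aqp7, Unc13a and Mrpl33 held new SMAD2/3, at 10.1-fold or less, and the Sox5 region lay 0.107 kb from a SMAD2/3 region.

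Gene lists gave small counts. Of 82 H3K27ac regions whose nearest start was one of 27 pathway genes, 3 were gained (3.66%, against 5.84% of all regions) and 2 lost (2.44%, against 6.79%). The 3 lay near Inhbb (activin βB subunit), Skil (the SMAD corepressor SnoN) and Ldlrad4, had mean ranks of 14.24, 17.11 and 30.45, and held no SMAD2/3. Of 57 regions at 32 SMAD target and early genes 4 were gained (7.02%) and 2 lost (3.51%). The gained ones lay near Fos, Egr2, Pdgfb and Cdkn2b. The Fos region, at -12.7 kb from this AP-1 gene (chr12:85461646-85464122, ranks 68.3 and 36.1), had new SMAD2/3 at 11.7- and 10.1-fold and FOXL2 at 9.27- and 10.0-fold in vehicle against 14.4- and 15.1-fold in activin libraries. The Pdgfb region, in an intron 2.69 kb from the start of this growth factor gene, ranked 74.1 and 48.9 and lay 0.451 kb from SMAD2/3. The Egr2 promoter, of an immediate early zinc finger factor, ranked 28.6 and 28.8 (fold enrichments of 3.0 and 3.21).

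Of 83 regions at 28 gonadotrope genes 6 were gained (7.23%) and 3 lost (3.61%, near Gata2, Nr0b1 and Nr3c1). By nearest start, the gained ones were 2 for Otx1 and 1 each for Esr2, Lhx4, Nr3c1 (the glucocorticoid receptor) and Pitx1. Of the Otx1 regions, 1 lay at -94.6 kb in an intron of Ehbp1. Those of Esr2 and Nr3c1 held SMAD2/3. The Nr3c1 region lay in intergenic sequence at -93.8 kb, with SMAD2/3 at 3.99- and 3.46-fold. The Pitx1 region, at -34.9 kb from this pituitary homeobox gene (chr13:55870293-55871627), ranked 40.4 and 47.5 and had a SMAD2/3 peak of 7.81-fold in activin library 1 and none in library 2. Of 30 regions at 14 genes of other pituitary lineages 2 were gained (6.67%), both at Ghrhr, the growth hormone-releasing hormone receptor, without either factor, and 4 were lost (13.3%, against 6.79% of all regions). The gained shares of the 4 lists, 3.66% to 7.23%, lay around the 5.84% of all regions and rest on 2 to 6 regions each.

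In all, 2293 genes were the nearest start of a gained region, 578 of them for at least 2 and 18 for at least 5. With 8 each, Fgf12, Gm15186 and Rbfox1 (a splicing factor) had the most; Fgf12 also had 2 lost and 11 constant regions, and Rbfox1 3 and 16. Upstream of Rbfox1 the gained regions chr16:6426664-6427645 and chr16:6427962-6428633 were bridged by 1 FOXL2 region, enriched 23.2- and 17.3-fold in the vehicle libraries and 27.7- and 25.9-fold in the activin ones. New SMAD2/3 (6427558 to 6427879) lay over the gap between them, at 5.04- and 6.27-fold. Rxra, encoding retinoid X receptor α and looked at because of its count, was nearest to 7 gained, no lost and 6 constant regions. None of the 7 gained held SMAD2/3 or FOXL2, and their mean ranks ran from 9.47 to 32.3. The opposite was seen, also picked for its counts, in Dnajc1, which held 5 gained, no lost and 3 constant regions. Of the 5 gained, 4 held SMAD2/3 and all 5 FOXL2, at mean ranks of 54.2 to 60.6.

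Upstream of Fshb 5 gained regions lay within 500 kb of the start, and none overlapped SMAD2/3 or FOXL2. The strongest (chr2:107082820-107085777) was centred at -24.6 kb and ranked 62.5 and 51.0; a weaker one (22.6 and 13.7) lay beside it at -22.8 kb. Another 2, at -56.2 and -71.4 kb, lay 364 and 339 bp to either side of a constant region (chr2:107117071-107129627). That region ranked 83.5 and 85.3 in the vehicle lists, against 94.5 and 98.7 after activin, and 3 SMAD2/3 regions of both activin libraries lay inside it, 2 of which both vehicle libraries had too. The last, at -123 kb, ranked 19.9 and 48.2.

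**Figure D5:**
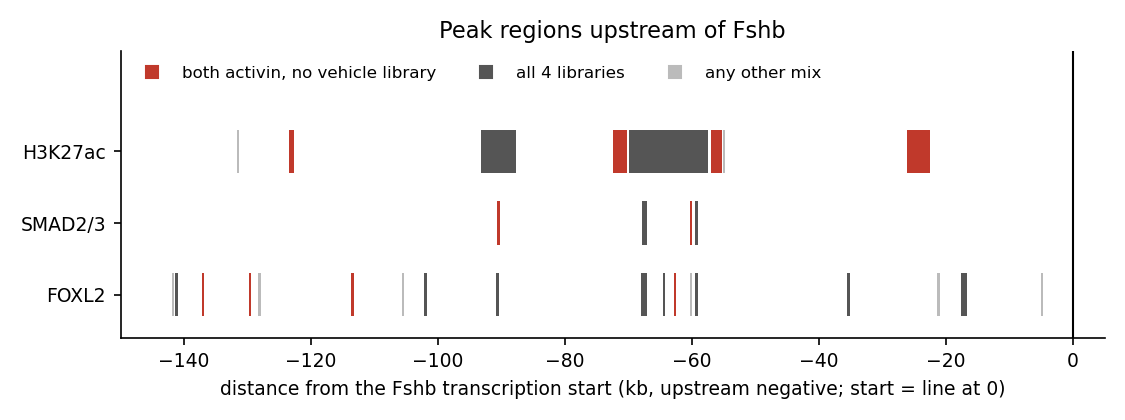
Peak regions of each antibody against distance from the Fshb start (kb, upstream negative), drawn to scale with a minimum width. Red marks regions of both activin and no vehicle library, dark grey those of all 4 libraries and light grey any other mix; red H3K27ac regions flank the wide dark one centred at -63.7 kb, and the SMAD2/3 regions lie on dark acetylated regions.

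Of 1005 miRNA hairpins of RefSeq, 3 touched a gained region: Mir339, Mir6401 and Mir5618, all at weak peaks without SMAD2/3. Mir339 lay in chr5:139367898-139369766 (ranks 30.0 and 5.27), and its mature 5p form is shown with its seed, bases 2 to 8, in capitals.
mmu-miR-339-5p: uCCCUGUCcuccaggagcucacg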

How the data were processed

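ChIP-seq peak lists of 12 libraries (3 antibodies, 2 treatments, 2 samples each) were used; a protein A control sample described with them was not analysed here. Per the submitters' processing notes, Bowtie2, MACS2 and HOMER were used and the builds named are GRCm38 and mm10; their versions and settings are not given in the sources used here. Each library had its own list, in which the authors deposited a score, a fold enrichment (ratio) and −log10 of p and q per peak, and a HOMER annotation table with class, nearest start and distance. Folds are the peaks' own values and were used only to describe peaks. No list gives reads, so depth is unknown.

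Peaks were merged with Python 3.11.15, pandas 2.3.3 and numpy 2.4.6 at an overlap of 1 bp; a factor was counted present where both libraries of a treatment had a peak in its merged region and that region overlapped by at least 1 bp. The region's class and nearest start are those of its strongest peak; the 2 columns can name different transcripts. Percentile ranks by −log10 q were taken within each list. Treatment differences over libraries were tested with exact permutation (scipy 1.17.1) and shares given Wilson 95% intervals. Merging and overlaps were checked on simulated peaks and with bedtools 2.31.1. Named regions are the 10 of highest mean rank, the 10 highest with both factors, the 5 highest at promoters, the 5 widest, all within 500 kb of Fshb, those of 4 gene lists (up to 3 each; others are named from the counts) and the 3 genes with most. The members and lists were chosen with earlier results of these data known.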

Additional observations from a re-analysis of the deposited data

How the results depend on the processing

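The 3094 gained regions became 1764 when presence needed a −log10 q of 2 and 153 at 5, and 3783 to 8512 without 1 H3K27ac library. The share with SMAD2/3 (15.2%) was 22.8% and 58.2% at those thresholds, 24.5% with peaks within 1000 bp merged, 6.0% to 19.4% without 1 library, 7.53% with at least 50% of the SMAD2/3 region covered, 29.2% within 1000 bp, 13.8% with SMAD2/3 peaks of −log10 q at least 5 and 25.6% around the peak centre. The FOXL2 share (48.4%) was 56.0% and 70.6% at those thresholds, 58.6% with merging, 31.7% to 50.3% without 1 library, 20.4% with 50% covered, 60.7% within 1000 bp and 55.8% around the centre. The promoter share (4.46%) was 5.88% at 5, 3.74% with merging, 5.03% to 7.56% without 1 library and 5.27% by distance to a start. The share near a constant region (22.5%) was 20.0% at 2, 9.45% with merging, 27.4% to 29.3% without 1 library, 15.5% within 1000 and 35.6% within 5000 bp. FOXL2 regions ranked higher (73.1%) were 76.1% at 2, 82.1% at 5, 65.7% by fold, 66.4% with FOXL2 lists of equal length and 65.2% to 84.3% without 1 library. Gaps with SMAD2/3 (44.0%) were 57.1% at 2, 85.7% of 7 at 5 and 27.3% to 42.2% without 1 library; with merging no such gaps exist.

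In the paired test with the replicate number as a block, the differences of 16.1 points (SMAD2/3) and 11.6 points (FOXL2) gave an exact permutation p of 0.5, the smallest this pairing allows; without 1 factor library they were 13.9 to 18.3 and 11.3 to 11.9. Of 86 alternatives 30 stayed within the main interval, within 1.5 times the main count or, for the differences, on the same side of 0, and 56 moved. The differences gave 5 alternatives for each factor, and all of these counted as stayed. They were judged by sign alone, and the paired test leaves the difference unchanged, so they say little about stability. The lead of gained over constant regions turned around without either activin H3K27ac library: for SMAD2/3 to 6.05% against 11.3% and 6.0% against 10.8%, for FOXL2 to 31.7% against 35.1% and 34.1% against 35.4%. The cause was not tested. The fixed window, the equal FOXL2 lists, the gap settings and the factor-library omissions of the differences were chosen after seeing the data.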

Other observations

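Gained and lost regions were not spread alike over the chromosomes: the number of gained per lost region ran from 0.495 on chromosome 3 to 1.53 on chromosome 11. The lost region of highest vehicle rank lay in an intron of Mta3, a subunit of the NuRD chromatin remodelling complex (chr17:83768353-83769531). FOXL2 at its edge was enriched 12.7- and 15.5-fold in the vehicle libraries, against 6.98- and 9.77-fold after activin, opposite in direction to the gained regions in Helz and Sh3kbp1.

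Where they were bound, SMAD2/3 peaks at gained regions ranked as high in the SMAD2/3 lists as those at constant ones (median mean rank 64.3 in both), while FOXL2 peaks ranked higher at gained than at constant regions (83.8 against 62.1).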
